A study of Mus musculus with 9 samples.

Results

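In the mouse liver with hepatocellular carcinoma, 41 genes lay outside the range of both healthy and untreated tumor-bearing livers after miR-22 treatment: 19 above and 22 below. In these genes the treated livers were not intermediate between health and tumor but stood beyond both. The genes were chosen by the deposited normalized counts themselves: a mean of at least 50 over the 9 livers, and either a lowest miR-22-treated value over 1.2 times the highest of the other 6 values or a highest miR-22-treated value under the lowest of those 6 divided by 1.2. Of the 55401 genes in the deposited table, 11942 had a mean of at least 50, and the 41 genes are 0.343% of these. Because the level in every liver entered the choice, those levels are given as a description. Where calls of the 41 genes by edgeR are listed, they stand beside the share of all tested genes, and nothing is read from them. The ratio of the nearest values on either side of the gap is called the margin.

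Whole livers of female mice that were 6 weeks old at the start were sequenced, with 3 livers in each of 3 groups. Healthy livers came from wild-type mice with no treatment as the baseline. Both other groups were wild-type mice with hepatocellular carcinoma (HCC) induced by hydrodynamic tail vein injection of sleeping beauty transposon plasmids that carry the oncogenes myristoylated AKT and NRAS. The protocol in the labels also lists a plasmid for N90-β-catenin, and the study's text describes this experiment as the RAS/AKT model. At 1 week after the oncogenes the mice received adeno-associated virus of serotype 8 (AAV8), either a blank vector (untreated HCC) or a vector carrying miR-22 under a CMV promoter (miR-22-treated HCC), and livers were taken at week 5, which is 4 weeks after the virus. The labels name the strain as C57BL/6 in a field of their own and as FVB/N in the protocol. Healthy livers received neither plasmids nor virus, so those exposures cannot be told apart from tumor growth in any comparison with them. The time of day of collection and the feeding state are not given in the sources used here. No week of collection is listed for the healthy livers, so their age at collection is not known here and may differ from that of the HCC groups.

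MicroRNAs guide Argonaute proteins to transcripts whose 3′ untranslated region (3′ UTR) pairs with the seed, the bases near the 5′ end of the microRNA, and pairing usually lowers the level of that transcript. A gene that moves after miR-22 is raised can therefore be a direct target or can change with the state of the tissue, since the liver adjusts glycogen, stress, secretory and growth genes to hormones, feeding and tumor load. In a bulk sample of whole liver, fewer cells of a type and less RNA per cell cannot be told apart.

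The sequence of mature miR-22-3p is shown because it fixes which transcripts can pair with it. It has the seed (bases 2 to 8) in capitals and comes from RefSeq on GRCm38.p6, chr11:75463772-75463793, plus strand.
mmu-miR-22-3p: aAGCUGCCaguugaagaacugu
A 7-base match to the seed (GGCAGCT) was found in the 3′ UTR of 3 of the 17 genes above both groups that have an annotated 3′ UTR (17.6%) and of 2 of the 21 below (9.52%). Over all 11353 genes with a mean of at least 50 and an annotated 3′ UTR, the share was 17.5%. None of these 17 and 21 genes had the longer match with an added A, which 2.81% of all these genes had. The median 3′ UTR was 1396 bases for the genes above, 1371 for those below and 1377 for all. The matches are printed below with the seed match in capitals and 11 bases on either side, in transcript orientation, from the canonical transcripts of GENCODE vM39 on GRCm39. They show which of the 41 genes hold the letters that miR-22 could pair with, and on which side of the other groups these genes lay.
Gmppb (below), chr9:107929031-107929059, plus strand: aggatggcctaGGCAGCTgaggacatggc
Alg12 (below), chr15:88689531-88689559, minus strand: ccaccaatcatGGCAGCTgttatagcccg
Ip6k2 (above), chr9:108684179-108684207, plus strand: ctgagccttctGGCAGCTccccacatccc
Arrdc2 (above), chr8:71287866-71287894, minus strand: aggcaactgggGGCAGCTgggcaaatccc
Arrdc2 (above), chr8:71287904-71287932, minus strand: caggcaactggGGCAGCTggggacatcac
Ldlrad4, above both groups, held 3 matches. A match describes the letters only. Of the 5 genes with a match, 3 thus lay above both groups, and none of the other genes with an annotated 3′ UTR held one.

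The total was 16664659 to 23908392 counts per liver. The normalized counts printed here are the deposited counts divided by the authors' size factor of each library. Akt1 and Nras, the genes of the injected oncogenes, checked the labels: Akt1 had 1958 to 2045 normalized counts in healthy livers, and its range was 22022 to 31729 in untreated and 12438 to 20598 in miR-22-treated HCC. Nras had 506 to 562, 1192 to 1466 and 988 to 1027 normalized counts in the same order. The miR-22 host transcript Mir22hg had 1069 to 1335, 253 to 389 and 521 to 606, and it does not measure the virus, which carries miR-22 on its own transcript. Hepatocyte markers were high in every liver, with a sum over 12 listed genes of 1730180 or more. Levels in every liver are plotted by group.

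**Figure D1:**
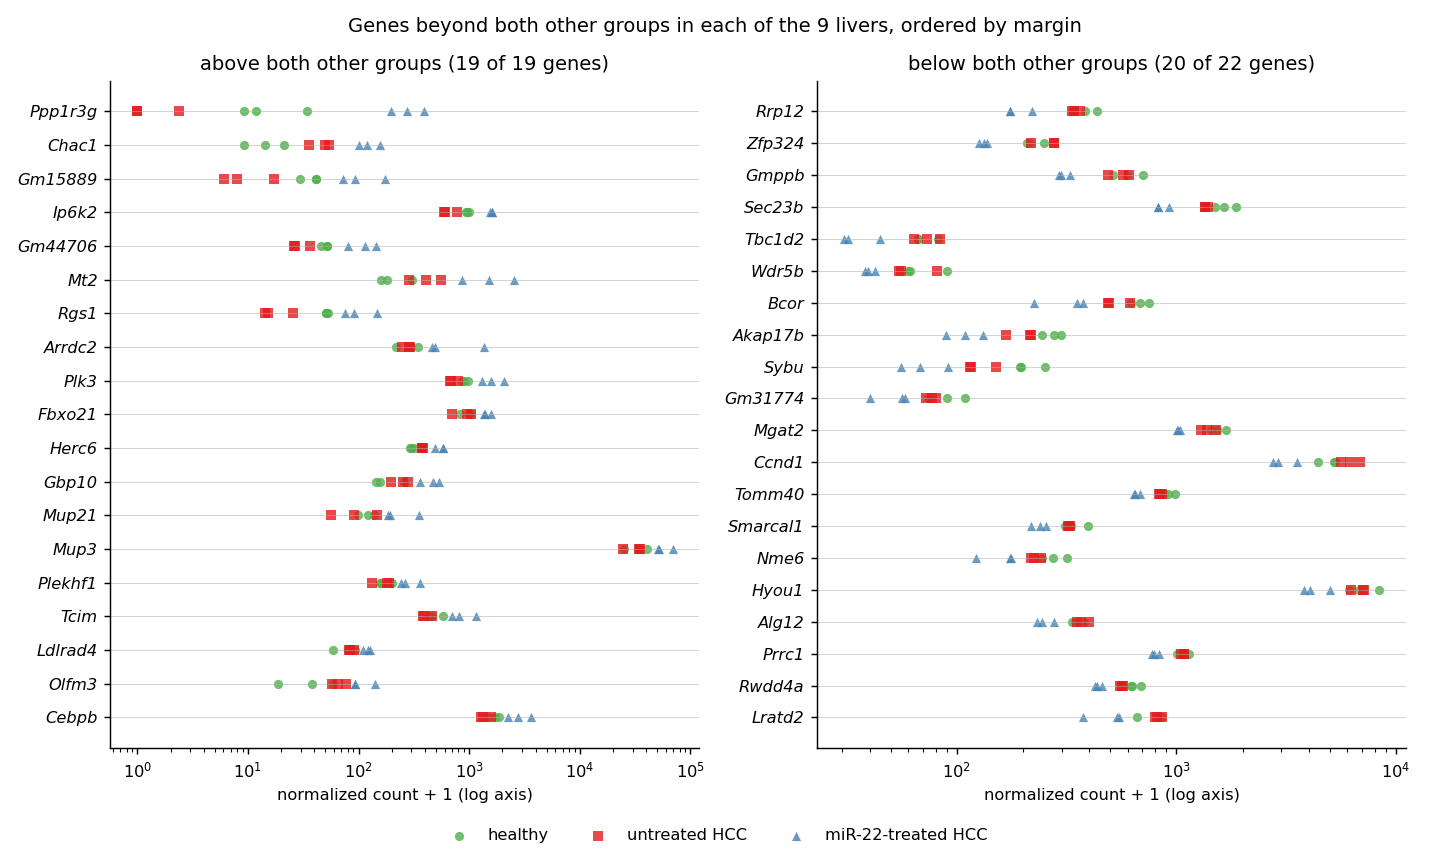
Normalized count plus 1 on a log axis for each of the 19 genes above (left) and 20 of the 22 genes below (right) both other groups, with 1 point per liver and 3 livers in each group, ordered by margin from the top. Ppp1r3g has the widest gap, with a margin of 5.91, and the lowest rows have margins near 1.2.

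Among the genes above both groups, Ppp1r3g and Ip6k2 act in glycogen and inositol phosphate metabolism. Ppp1r3g (ENSMUSG00000050423.11, GRCm39 chr13:36142822-36154371), a glycogen-targeting subunit of protein phosphatase 1 that promotes glycogen synthesis in the liver, had 33.2, 10.8 and 8.32 normalized counts in healthy livers, 0, 0 and 1.41 in untreated HCC and 196, 274 and 390.4 in miR-22-treated HCC. The transcript was thus near absent in the untreated tumor-bearing livers, low in healthy livers and high in all 3 treated livers. As raw counts it had 0, 0 and 2 in untreated HCC, 8 to 28 in healthy livers and 185 to 440 in miR-22-treated HCC. Taking 3 counts per library as the floor, treated livers were at least 117-fold higher than untreated ones, and they were 16.5-fold higher than healthy livers. Ip6k2 (GRCm39 chr9:108648036-108684638), an inositol hexakisphosphate kinase that makes inositol pyrophosphates, had 945, 934 and 1001 normalized counts in healthy livers, 589.6, 774 and 605 in untreated HCC and 1556, 1618 and 1604 in treated livers. The 3 treated livers were close together, and their mean of 1593 ± 32.8 (SD, n = 3) was 2.43-fold that of untreated HCC and 1.66-fold that of healthy livers. Ip6k2 carries 1 of the seed matches printed above.

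The relatives of these genes did not meet the rule. Ppp1r3b, the main glycogen-targeting subunit of the rodent liver, rose from 3046 ± 409 in untreated HCC to 5069 ± 1142 (SD, n = 3) normalized counts in treated livers (log2 fold change 0.76 ± 0.16, with its standard error (SE), adjusted p = 0.00563 in the quasi-likelihood test of edgeR) and was lower than in healthy livers by that test (log2 fold change −0.95, adjusted p = 0.000729). Treated over untreated HCC, Ppp1r3c had a log2 fold change of −0.01 ± 0.39 (SE, adjusted p = 0.985, edgeR). Of the 27 tested genes on a list of fed-state, glycogen and fatty acid synthesis genes other than Ppp1r3g, 6 were higher and 0 were lower in miR-22-treated than in untreated HCC, beside 8.32% and 5.47% of all tested genes, and the median log2 fold change was 0.34 beside 0.00. Against healthy livers 5 were higher and 8 lower, beside 16.9% and 7.05% of all tested genes, with a median of −0.34 beside 0.02. Liver glycogen synthase, Gys2, was among those that rose against untreated HCC (log2 fold change 1.57, adjusted p = 0.00031, edgeR), and against healthy livers its value was −0.28 (adjusted p = 0.276). A list of gluconeogenesis and fasting response genes, with no gene among the 41, rose as well. Of its 26 tested genes 15 were higher and 0 lower in miR-22-treated than in untreated HCC, with a median log2 fold change of 0.83. Against healthy livers 6 were higher and 0 lower, with a median of 0.04, beside the same shares of all tested genes. Ip6k1, the paralog of Ip6k2, had a log2 fold change of 0.40 ± 0.12 between the HCC groups (SE, adjusted p = 0.0321, edgeR), under the 1.5-fold threshold. These relatives were chosen after the 41 genes were known.

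Stress and metal response genes formed the next group. Mt2 (GRCm39 chr8:94898819-94900207), a metallothionein that binds zinc and copper and is induced by metals and glucocorticoids, had 306, 182 and 159 normalized counts in healthy livers, 285, 552 and 404 in untreated HCC and 1502, 2535 and 854 in treated livers. All treated livers exceeded every other liver, and their mean of 1630.2 ± 848 (SD, n = 3) was 3.94-fold that of untreated HCC and 7.57-fold that of healthy livers. In the annotation, 82.4% of the exon bases of Mt2 lie opposite exons of Gm45774, and the library kit did not keep strand, so reads of these genes cannot be told apart. Chac1 (GRCm39 chr2:119180757-119184866), a glutathione-degrading enzyme induced through ATF4 in the integrated stress response, had 20.1, 13.1 and 8.32 normalized counts in healthy livers, 49.1, 52.7 and 34.5 in untreated HCC and 118, 155 and 99.4 in treated livers. The groups formed 3 steps without overlap, with treated livers 2.73-fold over untreated and 8.94-fold over healthy livers. Cebpb (GRCm39 chr2:167530835-167532338), a bZIP transcription factor of gluconeogenesis and the acute phase response, lay just inside the margin at 1.201. Its normalized counts were 1873, 1475 and 1706 in healthy livers, 1567, 1345 and 1285 in untreated HCC and 2249.5, 3631 and 2743 in treated livers. Plk3, a stress-responsive polo-like kinase, had 855, 888 and 971 normalized counts in healthy livers, 794, 675 and 687 in untreated HCC and 1298, 1588 and 2079.8 in treated livers. Healthy and untreated livers had overlapping ranges for Cebpb, and for Plk3 all untreated livers lay below the healthy ones. The treated means of Cebpb and Plk3 were 2.05- and 2.30-fold those of untreated HCC.

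The proximal promoters of Mt2 and Chac1 are shown because these genes have textbook response elements close to the start of transcription. Each is the 250 bases before the start, in the direction of transcription, from the RefSeq table on GRCm38.p6, a build other than that of the counts. In Mt2 the capitals mark the metal response element core (TGCACNC or TGCGCNC, read on both strands), which had 3 matches, and in Chac1 the C/EBP-ATF response element TTGCATCA, which had 1 match.
Mt2, chr8:94172368-94172617, plus strand: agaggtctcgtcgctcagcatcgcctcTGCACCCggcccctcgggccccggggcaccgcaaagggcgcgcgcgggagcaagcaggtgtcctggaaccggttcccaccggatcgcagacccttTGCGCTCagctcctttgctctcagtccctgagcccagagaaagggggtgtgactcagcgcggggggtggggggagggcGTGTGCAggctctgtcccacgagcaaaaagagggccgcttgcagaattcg
Chac1, chr2:119350992-119351241, plus strand: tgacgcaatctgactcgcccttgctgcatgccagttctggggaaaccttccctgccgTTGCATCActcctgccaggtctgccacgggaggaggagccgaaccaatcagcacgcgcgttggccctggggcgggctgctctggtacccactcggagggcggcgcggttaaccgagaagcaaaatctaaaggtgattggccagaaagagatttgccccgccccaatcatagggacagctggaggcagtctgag
The metal response element core was present in 21.4% of the 32851 promoters of this length in the table. The 14 matched genes above both groups had 16 promoters, of which 1 held it, and the 12 matched genes below had 14, of which 6 held it (5 of the 12 genes, since both promoters of Bcor, which overlap, hold the same matches). The sequence TTGCATCA was in 0.791% of all promoters, and among the matched genes in Chac1 alone. Of 3 more motifs searched on both strands, the E-box CACGTG, present in 6.02% of all promoters, occurred in none of the 30 promoters of the 26 matched genes. The glucocorticoid receptor motif TGTTCT (16.1% of all) occurred in Ip6k2, Mup21 and Mup3 above and in Sec23b below, and the interferon regulatory factor core GAAANNGAA (7.13% of all) in 0 of the 16 promoters above and 5 of the 14 below (4 of the 12 genes). The other 15 genes were not matched in the table. A motif match describes letters only.

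The lists that these stress genes belong to are given beside them, with the tests of their other genes. Of 15 tested glucocorticoid-induced genes other than Mt2, 13 were higher and 1 lower in miR-22-treated than in untreated HCC by edgeR (8.32% and 5.47% of all tested genes were), with a median log2 fold change of 1.33 beside 0.00 over all tested genes. Against healthy livers 4 were higher and 1 lower (16.9% and 7.05% of all), with a median of 0.28 beside 0.02. Tat, a liver enzyme of tyrosine breakdown, had a log2 fold change of 2.52 ± 0.36 between the HCC groups (SE, adjusted p = 0.00072) and −0.11 against healthy livers. Of this list, Mt2 was the gene that met the rule. Mt1, the neighboring metallothionein, had 2822 ± 1009 (SD, n = 3) normalized counts in treated livers, 1182 ± 377 in untreated HCC and 1608 ± 619 in healthy livers. It rose against untreated HCC (log2 fold change 1.28 ± 0.31 SE, adjusted p = 0.0111, edgeR), and against healthy livers its value was 0.84 ± 0.31 (SE, adjusted p = 0.0511, edgeR). Angptl4, a secreted inhibitor of lipoprotein lipase on the same list, lay just outside the rule at 1.194, with a lowest treated value of 1469 and a highest other value of 1230 normalized counts. Higher calls against untreated HCC were not particular to this list. Of 29 tested urea cycle and amino acid breakdown genes 21 were higher and 0 lower, and of 34 xenobiotic-induced enzymes 21 and 0. Of 12 hepatocyte markers, which include Tat, 6 were higher and 0 lower. Other lists went the other way, such as p53 targets with 0 higher and 10 lower of 18.

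Most other genes of the integrated stress response were lower than in untreated HCC or had no call. Of 20 tested genes of this list other than Chac1 and Cebpb, 0 were higher and 7 lower in miR-22-treated than in untreated HCC, with a median log2 fold change of −0.37 beside 0.00 over all tested genes, of which 8.32% were higher and 5.47% lower. Against healthy livers 14 were higher and 1 lower, with a median of 1.45 beside 0.02 over all tested genes, of which 16.9% were higher and 7.05% lower. Chac1 and Cebpb were called higher against untreated HCC in this fit, but the rule had used the same livers, so nothing is read from their calls. Atf4, the central transcription factor of the response, had a log2 fold change of −0.06 ± 0.09 (SE, adjusted p = 0.677, edgeR), and Atf3 fell (log2 fold change −1.24 ± 0.24 SE, adjusted p = 0.00324, edgeR). The serine synthesis enzyme Phgdh had 728 to 1025 normalized counts in untreated HCC, 266 to 564 in treated livers and 5.98 to 10.7 in healthy livers. When at least 10 counts were required in every library, which removes genes silent in healthy livers such as Phgdh, the list had 4 calls between the HCC groups instead of 9. Without untreated replicate 3, its lower calls numbered 4 instead of 7. Chac2, the paralog of Chac1, had a log2 fold change of 0.50 ± 0.13 (SE, adjusted p = 0.0135, edgeR), and among relatives of Cebpb, Cebpa had 0.55 (adjusted p = 0.0157) and Cebpd 0.48 (adjusted p = 0.155), each under the 1.5-fold threshold. Plk2, a relative of Plk3, fell (log2 fold change −0.86 ± 0.15 SE, adjusted p = 0.00196, edgeR) but was higher than in healthy livers (log2 fold change 1.44, adjusted p = 2.62e-05).

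**Figure D2:**
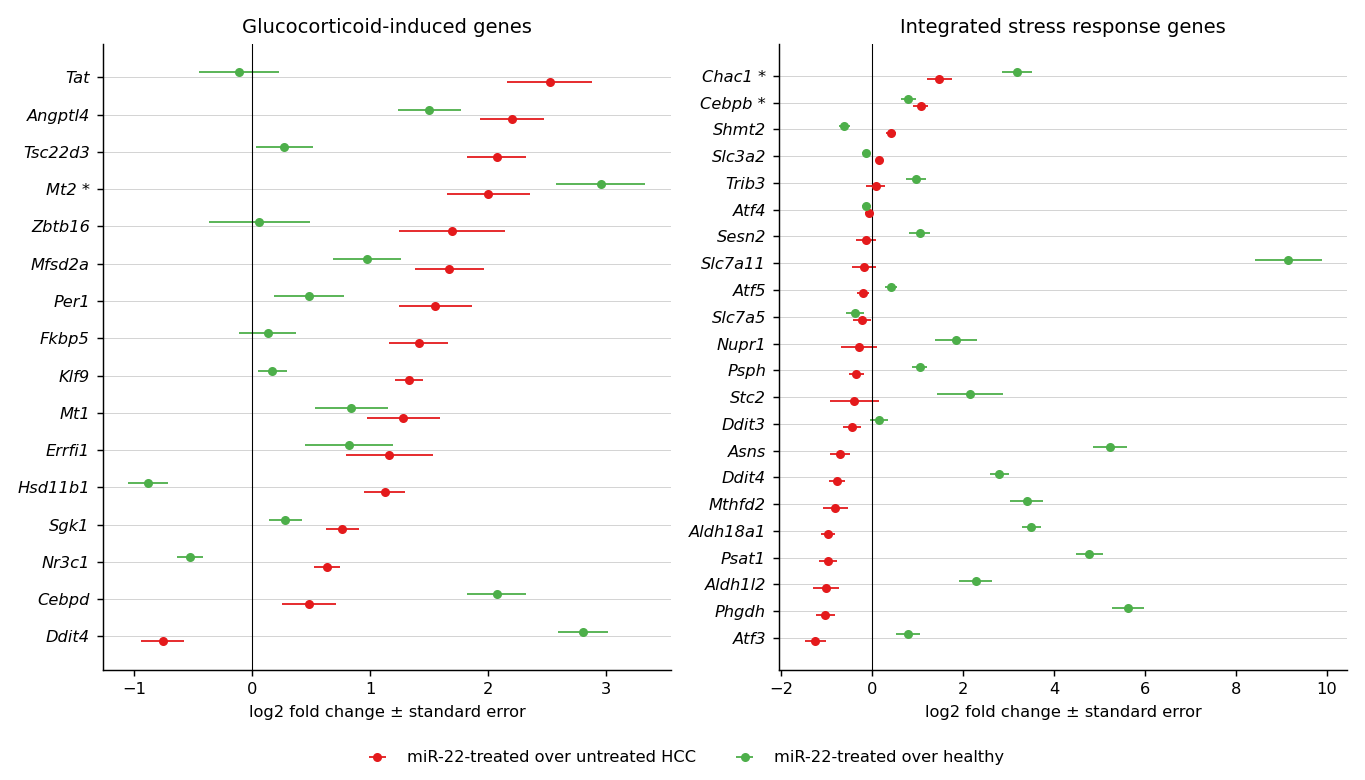
Log2 fold change with its standard error for tested genes of the glucocorticoid-induced list (left) and the integrated stress response list (right), in miR-22-treated HCC over untreated HCC (red) and over healthy livers (green), 3 livers per group. Asterisks mark Mt2, Chac1 and Cebpb, the genes of these lists that lie above both groups. Most glucocorticoid-induced genes are right of 0 in red and closer to 0 in green, and most stress response genes are left of 0 in red and right of 0 in green.

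Immune and interferon-linked genes above both groups were Rgs1, Herc6 and Gbp10. Rgs1, a brake on G protein signaling in lymphocytes, had 52.1, 50.2 and 49.9 normalized counts in healthy livers, 13.4, 24.6 and 14.1 in untreated HCC and 147, 74.4 and 89.6 in treated livers. It was low in every untreated liver and highest in all treated livers, 5.98-fold over untreated HCC and 2.05-fold over healthy livers. The summed level of 24 T and NK cell markers was 277 to 404 normalized counts in healthy livers and 316 to 348 in untreated HCC, and treated livers had 363 to 410.5, a range above that of untreated HCC that overlapped that of healthy livers. Gzmk was the only one of these markers at 0 in every liver, and the part of cell number in the Rgs1 level was not tested. Herc6, an interferon-induced ubiquitin ligase that attaches ISG15 in the mouse, had 296, 292 and 317 normalized counts in healthy livers, 381, 371 and 371 in untreated HCC and 581, 576 and 495 in treated livers. Gbp10, an interferon-induced GTPase, had 256, 143 and 155 normalized counts in healthy, 197, 279 and 253 in untreated and 529, 474 and 362 in treated livers. Both had the treated livers above the rest by a margin of 1.30. None of the 35 tested genes of the interferon-stimulated list was among the 41, and 2 of them were higher and 0 lower in miR-22-treated than in untreated HCC by edgeR, near the 8.32% and 5.47% of all tested genes, with a median log2 fold change of 0.08 beside 0.00. Against healthy livers 18 were higher and 1 lower, beside 16.9% and 7.05% of all tested genes, with a median of 0.72 beside 0.02. Gbp10 shares 44.0% of its exon bases with Gm43302 on the same strand, and reads of near-identical guanylate-binding proteins can be split between them, so its value is uncertain. Gbp7 rose between the HCC groups (log2 fold change 0.75 ± 0.12 SE, adjusted p = 0.00115, edgeR), and Gbp6 had 0.08 (adjusted p = 0.809).

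Secreted proteins were a further group. Mup3 (GRCm39 chr4:61947447-62005620), a major urinary protein that hepatocytes secrete under the control of growth hormone, was the most abundant of the 41 genes, with 25152, 33608 and 40492 normalized counts in healthy livers, 34668, 24772 and 34194 in untreated HCC and 52276, 69127 and 50919.6 in treated livers. Healthy and untreated livers covered overlapping ranges, and the mean of treated livers was 1.84-fold that of untreated HCC and 1.74-fold that of healthy livers. Mup21 had 98.3, 122 and 137 normalized counts in healthy livers, 146, 55.2 and 90.7 in untreated HCC and 192, 351 and 185 in treated livers, the same pattern at a far lower level. Other major urinary proteins had other patterns. Mup1, Mup7 and Mup17 rose against untreated HCC with log2 fold changes of 2.77, 3.47 and 2.60 (adjusted p = 0.00045, 0.00138 and 0.000371, edgeR). Mup20 had 0.05 (adjusted p = 0.94), with a log2 fold change of 5.90 over healthy livers. These genes are near-identical copies among which the authors' transcript quantification could split reads, so the value of each is uncertain. Olfm3, a secreted olfactomedin known from neural tissue, had 17.8, 37.1 and 58.2 normalized counts in healthy livers, 76.8, 56.9 and 64.0 in untreated HCC and 92.3, 141 and 92.3 in treated livers, near the lower limit of the rule.

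Adaptors and regulators of protein turnover and signaling made up the rest of the coding genes above both groups. Arrdc2, an arrestin-domain protein that links membrane proteins to ubiquitin ligases, had 341, 295 and 219 normalized counts in healthy livers, 247, 288 and 284 in untreated HCC and 492, 1367 and 461 in treated livers. Treated replicate 3 stood far above the other treated livers, so the mean of 773 ± 514 (SD, n = 3) had a wide error, and the 2.83-fold ratio of means over untreated HCC rests partly on that liver. Arrdc2 holds 2 of the seed matches printed above. Its relative Arrdc3 had a log2 fold change of 0.43 ± 0.21 (SE, adjusted p = 0.156, edgeR) between the HCC groups. Fbxo21, an F-box subunit of a ubiquitin ligase, had 1005, 1042 and 831 normalized counts in healthy livers, 693, 961 and 1037 in untreated HCC and 1558, 1390.4 and 1362 in treated livers. Tcim, a small regulator of Wnt/β-catenin transcription, had 441 to 583, 383 to 462 and 703 to 1153 normalized counts in the same order of groups. Plekhf1, an endosomal protein that binds phosphoinositides, had 154 to 199, 132 to 186 and 241 to 360.3, and Ldlrad4, an inhibitor of TGFβ signaling, 58.2 to 91.2, 80.7 to 89.3 and 109.9 to 126. For these 4 genes healthy and untreated livers shared a range and the treated livers lay 1.41- to 2.16-fold above untreated HCC by their means. On the opposite strand, exons of Fam210a cover 34.1% of the exon bases of Ldlrad4, and over the 9 livers Fam210a had a mean of 1363 normalized counts against 93.0 for Ldlrad4.

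Gm15889 and Gm44706, long noncoding RNA genes, were the noncoding genes above both groups. Gm15889 (GRCm39 chr8:95102969-95108084) had 40.3, 28.7 and 40.5 normalized counts in healthy livers, 16.1, 5.10 and 7.03 in untreated HCC and 72.1, 174 and 91.4 in treated livers. Gm44706 (GRCm39 chr7:79390426-79391764) had 50.9, 51.4 and 44.7 normalized counts in healthy, 25.9, 35.7 and 25.3 in untreated and 79.5, 143 and 113 in treated livers. Both followed the order of Ppp1r3g and Rgs1, lowest in untreated HCC, intermediate in healthy livers and highest with miR-22. Gm15889 shares 67.9% of its exon bases with Gm15890 on the opposite strand.

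Genes below both groups included 5 that serve protein glycosylation and export from the endoplasmic reticulum (ER), of which Gmppb and Sec23b kept the margin under each scaling tried. Alg12 and Hyou1 had margins of 1.186 and 1.192 with the TMM scaling of edgeR and 1.032 and 1.037 with counts scaled to the library total, where Mgat2 had 1.189. Gmppb (GRCm39 chr9:107926441-107930001), which makes the mannose donor GDP-mannose, had 595, 515 and 704 normalized counts in healthy livers, 572, 485 and 605 in untreated HCC and 328, 295 and 292 in treated livers. All treated livers were lower than the lowest other liver, with untreated and healthy means 1.82- and 1.98-fold the treated mean. Gmppb is 1 of the 2 genes below both groups with a seed match, and 50.3% of its exon bases lie opposite exons of Rnf123, which was more abundant (a mean of 1265 against 488 normalized counts). Alg12, an ER mannosyltransferase that builds the lipid-linked oligosaccharide and the other gene with a match, had 377, 335 and 344 normalized counts in healthy livers, 400.2, 352 and 366 in untreated HCC and 276, 232 and 243 in treated livers. Mgat2, the Golgi enzyme that starts the second branch of complex N-glycans, had 1432, 1522 and 1677 normalized counts in healthy, 1292, 1377 and 1505 in untreated and 999, 1035 and 1011 in treated livers. The treated livers were lower by small, even steps, with untreated means 1.49- and 1.37-fold the treated means. Sec23b (GRCm39 chr2:144391970-144432684), an inner coat subunit of the COPII vesicles that leave the ER, had 1502, 1638 and 1874 normalized counts in healthy livers, 1341, 1349 and 1385 in untreated HCC and 927, 827 and 823 in treated livers. Hyou1 (GRCm39 chr9:44290418-44303666), a large ER chaperone also known as GRP170, had 6771, 6102 and 8392 normalized counts in healthy, 7114, 6224 and 7063 in untreated and 5001, 3812 and 4041 in treated livers. Its healthy and untreated means were within 1.04-fold of each other, and the untreated mean was 1.59-fold the treated mean.

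Relatives in the same pathway were compared by edgeR. Gmppa, the regulatory partner of Gmppb, had log2 fold changes of −0.34 ± 0.10 against untreated HCC (SE, adjusted p = 0.0314) and −0.37 against healthy livers (adjusted p = 0.0163, edgeR), both under the 1.5-fold threshold. Mgat1, which acts earlier than Mgat2, had −0.37 (adjusted p = 0.0124) and −0.34 (adjusted p = 0.0122). Mgat5, a branching enzyme that acts later, had −0.21 (adjusted p = 0.184) against untreated HCC and was higher than in healthy livers (0.63, adjusted p = 0.00103, edgeR). For Alg9 and Alg8, which act beside Alg12, the values against untreated HCC were −0.15 (adjusted p = 0.315) and −0.08 (adjusted p = 0.778). Sec23a, the paralog of Sec23b, had 0.23 ± 0.11 (SE, adjusted p = 0.159, edgeR). Of 19 tested ER chaperone and unfolded protein response genes other than Hyou1, 1 was higher (Herpud1) and 2 were lower (Dnajb9 and Syvn1) in miR-22-treated than in untreated HCC, and against healthy livers 1 was higher and 2 lower. Of all tested genes 8.32% were higher and 5.47% lower in the first comparison and 16.9% and 7.05% in the second, and the list's median log2 fold changes were 0.02 and −0.03 beside 0.00 and 0.02. The major chaperone Hspa5 had −0.42 ± 0.14 (SE, adjusted p = 0.047, edgeR) against untreated HCC and −0.25 (adjusted p = 0.191) against healthy livers.

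Chromatin and genome maintenance genes included Bcor, Smarcal1, Wdr5b and Zfp324. Bcor (GRCm39 chrX:11902973-12026814), a corepressor in a variant Polycomb repressive complex 1, had 745, 678 and 621 normalized counts in healthy livers, 484, 489 and 615 in untreated HCC and 351, 223 and 374 in treated livers. The means stepped down from healthy through untreated to treated livers, with an untreated mean 1.67-fold the treated mean. Its relative Bcorl1 had a log2 fold change of −0.06 between the HCC groups (adjusted p = 0.824, edgeR). Zfp324, a zinc finger protein, had 249, 214 and 207 normalized counts in healthy livers, 277, 217 and 277 in untreated HCC and 132, 125 and 137 in treated livers, the second widest gap below both groups with a margin of 1.51. Smarcal1, an annealing helicase of stalled replication forks, had 217 to 252 normalized counts in treated livers and 311 to 393 in the other 6. Wdr5b, a paralog of the histone methyltransferase subunit Wdr5, had 37.1 to 41.3 against 53.6 to 88.9, and 38.6% of its exon bases lie opposite those of Fam162a, which had a mean of 636 normalized counts against 56.9.

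Growth, ribosome and mitochondrial genes came next. Rrp12 (GRCm39 chr19:41847867-41884649), a factor in the maturation and export of ribosomal subunits, had the widest gap below both groups, with 381, 334 and 436 normalized counts in healthy livers, 339, 332 and 363 in untreated HCC and 174, 174 and 218 in treated livers. Ccnd1 (GRCm39 chr7:144483668-144493662), the cyclin D1 that drives entry into S phase, had 5261, 4405 and 5239 normalized counts in healthy, 6168, 6835 and 5615 in untreated and 3538, 2758 and 2885 in treated livers. It was abundant in healthy liver, somewhat higher in untreated HCC and lowest with miR-22, where the mean of 3061 ± 418 (SD, n = 3) was exceeded 2.03-fold by untreated HCC and 1.62-fold by healthy livers. Ccnd2 differed in pattern: it fell against untreated HCC (log2 fold change −1.09 ± 0.19 SE, adjusted p = 0.00161, edgeR) but was higher than in healthy livers (1.05, adjusted p = 0.00115, edgeR). Ccnd3 had −0.28 (adjusted p = 0.0848) and 0.02 (adjusted p = 0.89). Tomm40, the channel of mitochondrial protein import, had 639 to 678 normalized counts in treated livers and 835 to 982 in the other 6. Nme6, a nucleoside diphosphate kinase of mitochondria, had 122 to 176 against 216 to 316. In both genes the treated livers were lower by modest ratios, with untreated means 1.28- and 1.44-fold the treated means.

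The remaining genes below both groups act in vesicle transport and anchoring or have less certain roles. Sybu, which tethers vesicles to kinesin, had 251, 195 and 192 normalized counts in healthy livers, 114, 114 and 149.8 in untreated HCC and 90.2, 54.3 and 66.5 in treated livers. It was lower at each step, and the healthy mean was 3.02-fold the treated mean, the largest such ratio among the genes below. Akap17b, an anchor of protein kinase A, had 243, 295 and 277 normalized counts in healthy, 214, 166 and 217 in untreated and 130.5, 88.6 and 107 in treated livers, again with the highest values in healthy livers and the lowest with miR-22. Tbc1d2, a GTPase-activating protein for Rab7, had 29.5 to 43.5 normalized counts in treated livers and 62.6 to 82.4 in the other 6, with an untreated mean 2.09-fold the treated mean. Lratd2, just inside the margin at 1.201, had 374 to 548 against 659 to 861, and its margin was 0.994 with counts scaled to the library total (CPM), where the groups overlapped. Prrc1 had 770.0 to 830.5 against 1008 to 1135, Rwdd4a 422 to 457 against 551 to 689, and the long noncoding RNA Gm31774 39.0 to 56.8 against 71.0 to 108. The untreated means of Rwdd4a and Prrc1 were only 1.28- and 1.35-fold the treated means.

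The margins and ratios of the 41 genes are values that the rule used and are given as a description. Since a gene low in the other livers can reach the mean limit through the treated livers alone, as Ppp1r3g did, the genes above and those below are not comparable in size. The median margin was 1.31 for the 19 genes above and 1.25 for the 22 below, and 6 and 2 of them had a margin of 1.5 or more. By group means, the median ratio of treated over untreated HCC was 2.30 for the genes above, and that of untreated over treated HCC was 1.58 for the genes below. Against healthy livers the medians were 2.04 (treated over healthy) and 1.74 (healthy over treated). With counts scaled to the library total, 12 of the 19 genes above and 11 of the 22 below kept the margin. Those above that did not were Fbxo21, Gbp10, Herc6, Ldlrad4, Mup21, Olfm3 and Plekhf1, and those below included Ccnd1, Gm31774, Nme6, Prrc1, Smarcal1 and Tomm40. With TMM scaling, all 19 above and 16 below kept it, and Prrc1, Rwdd4a and Lratd2 were among those that did not. At the edge of the rule, Cebpb and Olfm3 both had margins of 1.201 just inside above, and Angptl4 and Tnfrsf1b had 1.194 and 1.188 just outside. Lratd2 had 1.201 just inside below, and Pars2 and Pgam5 had 1.198 and 1.195 just outside. Coding genes were 17 of the 19 above and 21 of the 22 below. The genes lay on 11 and 13 chromosomes, with at most 4 and 3 on any chromosome. Exons shared with another annotated gene occurred in 9 of the 19 above and 17 of the 22 below.

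Being outermost was rare for miR-22-treated livers. By the same rule, miR-22-treated HCC was the outermost group for 41 of 11942 genes (0.159% above and 0.184% below), untreated HCC for 1554 (671 above and 883 below, 13.01%) and healthy livers for 2748 (1129 above and 1619 below, 23.0%). A gene can count under more than 1 group, as Sybu does for miR-22-treated and healthy livers. Among the 41, the ranges of healthy and untreated livers overlapped in 11 of the 19 genes above and 12 of the 22 below, compared with 30.5% of all genes with a mean of at least 50.

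The same genes in edgeR's fit over all 15717 tested genes are given beside the background, with nothing read from them, since the rule used these livers. Of the 19 genes above, 17 were called higher than in untreated HCC (8.32% of all tested genes were) and 19 higher than in healthy livers (16.9%). Of the 22 below, 12 were called lower than in untreated HCC (5.47%) and 15 lower than in healthy livers (7.05%). A call needed a fold change over 1.5 beside an adjusted p under 0.05, which small margins such as those of Mgat2 and Tomm40 did not reach. In untreated HCC against healthy livers, Chac1 and Mt2 were called higher (22.7% of all tested genes were) and Ppp1r3g, Gm15889, Gm44706, Rgs1 and Sybu lower (18.1%), and the others had no call.

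**Figure D3:**
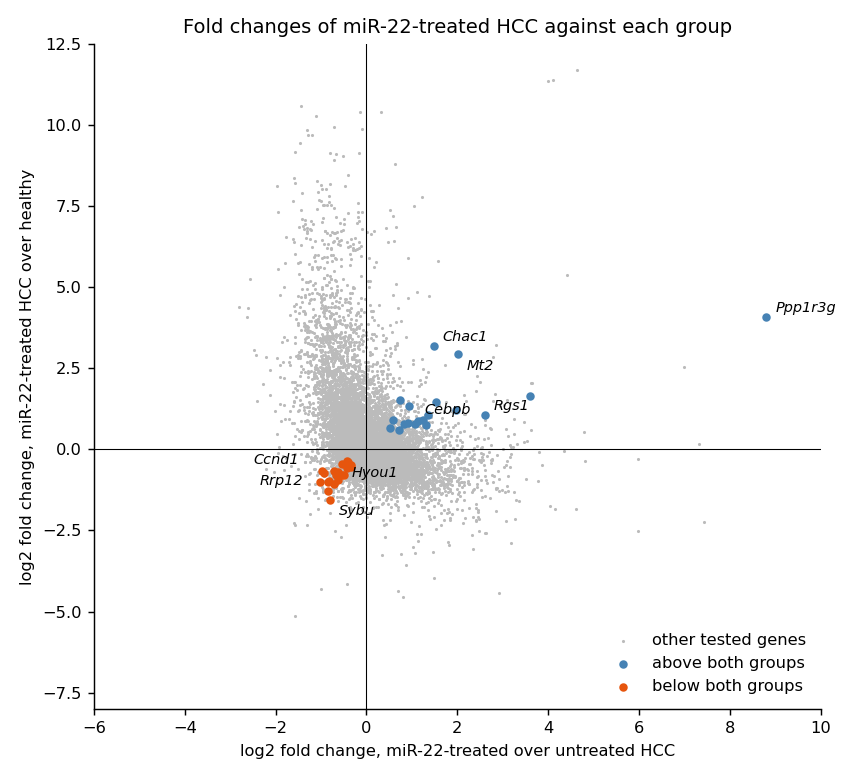
Log2 fold change of miR-22-treated HCC over untreated HCC (x axis) against that over healthy livers (y axis) for 15717 tested genes, both from edgeR with the same 3 treated livers in each axis. The 19 genes above both groups (blue) lie in the upper right and the 22 below (orange) at the lower left, as the rule fixes, and Ppp1r3g lies farthest from the rest of them.

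Treated replicate 3 was the most extreme treated liver in 12 of the 19 genes above and 14 of the 22 below.

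Pancreatic transcripts were checked because treated replicate 2 carried them. The summed level of 37 pancreatic acinar genes was 12685 normalized counts in that liver, 0.0680% of its counts, against 507 to 1139.7 in the other 8 livers. In healthy livers most of the sum was Cela1, an elastase gene, with 473 to 842 normalized counts. Without Cela1, Spink1 and Bhlha15 the sum was 11287 in treated replicate 2, 427 in untreated replicate 4, where Ctrb1 had 62.6, and 25.99 to 123 in the other 7 livers. Ctrb1, the chymotrypsinogen gene, had 1684 normalized counts there and Pnlip, the pancreatic lipase gene, 1194. Reg2, Ptf1a, Prss3, Amy2a5 and Cela3a were listed at 0 in every liver, and the sum of 10 islet genes was at most 9.55. Of all genes in the table, 20 had at least 50 normalized counts in that liver and at least 10 times the highest other liver, 19 of them on the acinar list. None of the 37 acinar genes was among the 41. For the 19 genes above, treated replicate 2 had 0.539 to 1.80 times the mean of the other treated livers (median 0.871), and for the 22 below 0.834 to 1.49 times (median 1.12). In the median gene, treated replicate 2 was therefore nearer to the other groups than the other treated livers were. Rgs1 was the gene above both groups with the highest ratio.

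**Figure D4:**
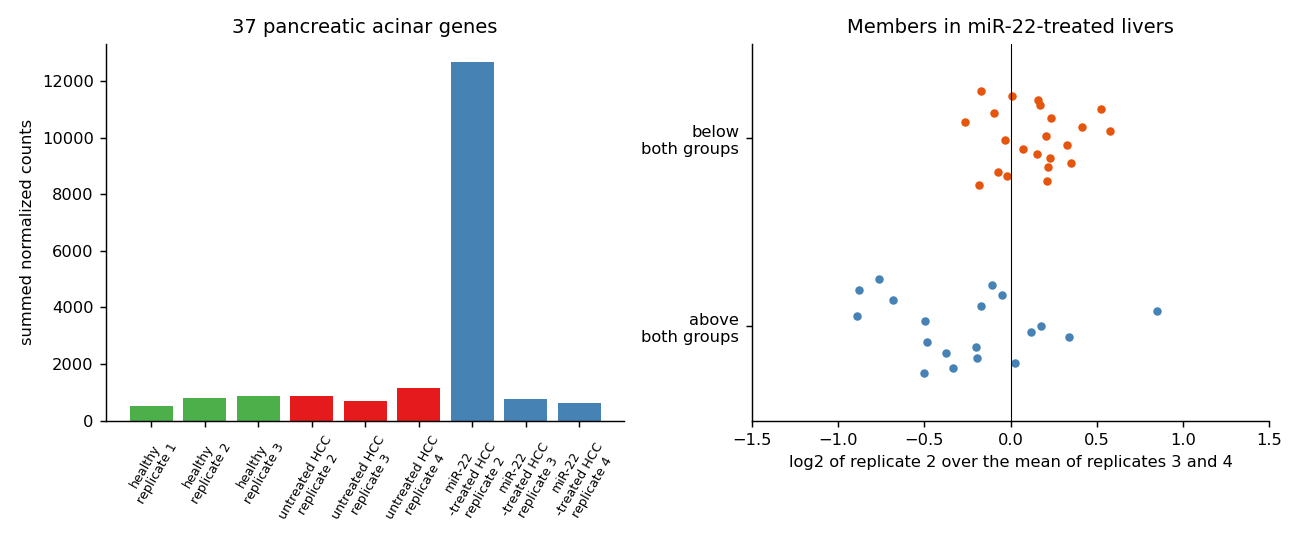
Left: summed normalized counts of 37 pancreatic acinar genes in each of the 9 livers, with 12685 in miR-22-treated replicate 2 and at most 1139.7 elsewhere. Right: log2 of the normalized count in treated replicate 2 over the mean of treated replicates 3 and 4 for each of the 41 genes, which scatter on both sides of 0.

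Of the 41 genes, 5 were on 4 of the 22 pathway lists, 36 were on none, and none was on any of 13 lists of cell type markers, which held 90 genes with a mean of at least 50. Those 5 were 1.07% of the 469 genes with a mean of at least 50 on pathway lists, beside 0.343% of all genes with such a mean. No marker list had a summed level in treated livers beyond both other groups. The macrophage and Kupffer cell sum, for example, was 10667 to 13287 normalized counts in healthy livers and 74774 to 128669 in untreated HCC, and treated livers lay between them at 43459 to 63924. Clock genes, whose level depends on the hour of collection, were compared too. Of 22 tested core clock genes 8 were higher and 3 lower in miR-22-treated than in untreated HCC by edgeR, beside 8.32% and 5.47% of all tested genes, with a median log2 fold change of 0.36 beside 0.00. Against healthy livers 3 were higher and 9 lower, beside 16.9% and 7.05%, with a median of −0.21 beside 0.02. Arntl, the activator of the clock, had 252 to 411 normalized counts in untreated HCC, 79.1 to 139 in treated livers and 38.3 to 57.2 in healthy livers, and its target Dbp had 355 to 704, 1282 to 1700 and 2255 to 3144. Both lay between the other groups in treated livers, and no core clock gene was among the 41. The part of the hour of collection in the level of glucocorticoid-induced genes such as Mt2 was not tested.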

How the data were processed

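RNA from 9 whole livers was sequenced as paired reads with a kit that does not keep strand. Per the labels the submitters' processing notes name FastQC 0.11.7, Salmon, DESeq2 1.18 and GRCm39. The authors deposited counts per gene as whole numbers for 55401 genes, estimated by Salmon and summed per gene, and a normalized signal, each count over the DESeq2 size factor of its library, which is printed here. Multiplied by that factor, 100% of the deposited normalized values came within 0.01 of the count. The choice of genes used the normalized values, and every test used the counts.

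The genes, the gene lists and the tests were chosen with earlier results of these data known. Motifs, related genes and the grouping by function were chosen after the genes were seen, and no enrichment was tested. Genes named are those with the 15 largest margins on each side, those on the lists, those nearest the margin, clock and acinar genes and the label checks, and any other was named after its values were seen. Of the 22 genes below both groups, 2 are counted but not reported here.

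Counts were tested with edgeR 4.0.16 in R 4.3.3 (TMM, filterByExpr, 15717 genes, quasi-likelihood F test, two-sided, 3 groups in a single fit, common dispersion 0.0206, Benjamini-Hochberg adjustment over all tested genes). The study used DESeq2, which was run as an alternative in version 1.42.0. A call needed a fold change over 1.5 beside an adjusted p under 0.05. The mean over 3 livers is given with its SD, and p-values measure the spread between these livers. All 41 genes passed the filter. Depth was 16664659 to 23908392 counts per liver, and replicates differed by more than counting noise. Lists held 676 symbols, of which 672 were found, and the fit was tested on simulated data. Figures and sequence searches used Python 3.11.15 and matplotlib 3.10.9. Alternatives were TMM or CPM scaling, other limits of the rule, DESeq2, other filters, a replicate block and each liver left out.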

Additional observations from a re-analysis of the deposited data

How the results depend on the processing

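The 41 genes depend on the limits of the rule and on the scaling. Above both groups there were 19 genes, which became 159 with a margin over 1.0, 6 with a margin over 1.5 and 11 with a mean of at least 200. Below there were 22, which became 387 with a margin over 1.0 and 2 with a margin over 1.5. Leaving out each liver in turn gave 21 to 62 genes above and 25 to 77 below. The counts moved by over 1.5 times without healthy replicate 1 (31 above), untreated replicate 3 (35 below), treated replicate 2 (62 above and 77 below) and treated replicate 4 (46 above and 71 below). Fewer livers make the rule easier to meet, but the size of the shift depended on which liver was left out. Without treated replicate 3 there were 25 above and 31 below. With TMM scaling all 19 genes above kept the margin and 16 of the 22 below did. With CPM of the library total, 12 and 11 did, all genes above and 21 below still did not overlap the other groups, and Lratd2 had a margin of 0.994. The median log2 ratio of treated over untreated HCC over all genes with a mean of at least 50 was −0.03 as deposited and −0.23 in CPM.

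Calls between the HCC groups numbered 2167 and became 3777 with no fold threshold, and without each liver in turn 1433 to 2660, the lowest without treated replicate 3 (1018 higher and 415 lower). Against healthy livers 3772 became 5732 with no fold threshold. With no fold threshold 17 core clock genes were called instead of 11, and with at least 10 counts in every library 4 integrated stress response genes instead of 9. The acinar sum of treated replicate 2 was 11.1 times the highest other liver, 10.03 times in CPM and, as chosen after seeing the data, 26.4 times without Cela1, Spink1 and Bhlha15. Without untreated replicate 3, lower calls between the HCC groups numbered 481 instead of 859 (565 without untreated replicate 2), those of the integrated stress response 4 instead of 7, and glucocorticoid-induced genes had 11 calls instead of 15. Of the counts and sums under alternatives, 110 stayed within 1.5 times the main value or its counting error and 18 did not, which does not say that single calls were kept.

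The shared replicate numbers of the HCC groups did not mark pairs: the correlation of deviations across genes was −0.24 to −0.12 for the 3 same-numbered pairs and −0.01 to 0.13 for the others. With a replicate block, 1745 genes were called between the HCC groups, 3044 between treated and healthy livers, 5863 between untreated and healthy livers, and 10 core clock genes.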
